A study of Mus musculus with 37 samples.

Results

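The inflammatory monocyte genes followed here were Ly6c2, Plac8, Chil3, Vcan, F10, Fcgr1, Fcgr4, Ms4a4c, Ms4a6c and Ifitm6, taken by symbol from a table of RNA levels in mouse heart. They are 10 of 56748 listed genes, and all 10 were among the 16530 genes with enough signal to test. Bulk RNA sequencing covered 37 libraries of left ventricular tissue from young adult C57BL/6J mice of both sexes, in 9 groups. The 5 Naïve libraries came from mice that had isoflurane anaesthesia only. Adr mice, which the sample labels call sham, also had isoflurane, were ventilated, and received saline into the left ventricle and then adrenaline. Arrest mice were handled alike but received potassium chloride, which stopped the heart, and were resuscitated with adrenaline and chest compressions. Adr and Arrest each had 4 libraries per time, taken 0.5, 1, 3 or 7 d (days) afterwards. Arrest and Adr animals therefore share anaesthesia, ventilation, a ventricular injection and adrenaline, and Naïve animals share only the anaesthesia. The labels number the libraries within a group but do not say which animal each came from, so the p-values measure the spread between these libraries.

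Monocytes of the mouse circulate in a Ly6C-high, classical form and a Ly6C-low, patrolling form. Ly6C-high monocytes leave the marrow through the chemokine receptor CCR2 and enter injured myocardium, where they can become macrophages. Ly6C, the surface protein that defines the class, is encoded by the neighbouring genes Ly6c1 and Ly6c2, and of these Ly6c2 is the one typical of monocytes, while Ly6c1 is also abundant in vascular endothelium. The other members are carried by monocytes, not all of them mainly by the Ly6C-high form, in different roles. Fcgr1 and Fcgr4 encode activating receptors for IgG, and Ms4a4c and Ms4a6c encode membrane proteins with 4 membrane-spanning segments. Chil3 encodes the secreted chitinase-like protein Ym1, Vcan the proteoglycan versican and F10 coagulation factor X. Plac8 encodes a small cysteine-rich protein, and Ifitm6 a member of the interferon-induced transmembrane family. Several of them are not restricted to monocytes. Versican is also a product of fibroblasts, and Chil3 is also made by neutrophil precursors and by some macrophages.

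The sequence before the start of transcription is shown for the pair of Ly6C genes, which are near-identical in transcript and far apart in level, for Chil3, the member with the largest fold change, and for Fcgr1, the member with the highest single value. Each run is the 250 bases before the first start that RefSeq lists in GRCm38.p6, read along the gene's strand. Capitals mark matches to the letters GAGGAA (the core bound by PU.1 and other ETS factors) or TTCNNNGAA (the GAS element bound by STAT factors) on either strand. Ly6c2 lies at chr15:75111972-75112221 on the minus strand, Ly6c1 at chr15:75048838-75049087 on the minus strand, Chil3 at chr3:106167565-106167814 on the minus strand, and Fcgr1 at chr3:96293970-96294219 on the minus strand.
Ly6c2: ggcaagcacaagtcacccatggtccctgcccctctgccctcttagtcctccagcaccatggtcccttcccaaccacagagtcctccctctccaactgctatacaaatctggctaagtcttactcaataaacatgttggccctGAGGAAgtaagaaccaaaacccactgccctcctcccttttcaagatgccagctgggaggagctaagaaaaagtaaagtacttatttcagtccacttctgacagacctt
Ly6c1: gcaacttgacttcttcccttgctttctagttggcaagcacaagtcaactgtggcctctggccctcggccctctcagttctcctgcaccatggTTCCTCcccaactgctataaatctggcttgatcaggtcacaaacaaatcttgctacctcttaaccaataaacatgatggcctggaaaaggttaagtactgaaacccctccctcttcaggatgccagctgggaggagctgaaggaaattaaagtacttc
Chil3: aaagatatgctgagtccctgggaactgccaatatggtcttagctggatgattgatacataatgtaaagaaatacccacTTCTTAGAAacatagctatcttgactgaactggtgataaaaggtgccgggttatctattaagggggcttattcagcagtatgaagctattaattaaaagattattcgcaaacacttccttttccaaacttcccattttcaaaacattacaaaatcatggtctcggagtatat
Fcgr1: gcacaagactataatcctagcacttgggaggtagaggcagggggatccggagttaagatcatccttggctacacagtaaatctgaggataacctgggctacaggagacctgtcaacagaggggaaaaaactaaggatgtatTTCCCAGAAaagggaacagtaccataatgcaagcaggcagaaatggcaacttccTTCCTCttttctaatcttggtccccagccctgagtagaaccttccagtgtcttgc
Upstream of Ly6c2 and Ly6c1, 75.9% of 216 aligned bases were identical, and their longest coding transcripts were identical at 97.6% of 822 aligned bases. GAGGAA was found in 5 of the 10 members (Ly6c2, Plac8, Fcgr1, Fcgr4 and Ms4a4c) and in 23.3% of 32851 promoters of the same length. TTCNNNGAA was found in 3 members (Chil3, Fcgr1 and Ifitm6) and in 7.02% of promoters. The interferon-stimulated response element was found in Fcgr4 alone among the members and in 2.98% of promoters, and TTGCNNAA, a C/EBP core, in none of the members and in 9.56% of promoters. These matches describe letters in the window only.

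Levels are given in the deposited unit, FPKM, in which fragments are divided by gene length and by a factor for the library, so that genes can be compared per length. That factor was not depth alone. Median-ratio factors computed from the deposited values were 1.01 in every library, so the values were already on a common median-ratio scale. The libraries held 13.2 M to 30.2 M fragments. One library stood apart before any comparison: Adr 3 d replicate 3. Its summed FPKM over 8 cardiomyocyte markers was 3727, against 8129 to 17006 in the other 36 libraries, and 9.36% of its fragments came from mitochondrial genes, against 20.8% to 30.9%. Its summed resident macrophage markers (964, against 205 to 603) and fibroblast markers (1143, against 248 to 657) were the highest of the 37. So were its sums over 40 other monocyte genes (3152, against 432 to 1400), platelet markers (293, against 33.2 to 118) and interferon response genes (257, against 27.9 to 139). Its T cell, NK cell, dendritic cell and neutrophil sums were also the highest. Its B cell (16.7) and endothelial (254) sums lay within the range of the other libraries, and its red cell sum (806) was the lowest. The study left out 1 Adr 3 d sample for poor quality and the labels do not say which, so the main values for Adr 3 d are given with and without it.

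Adr 3 d replicate 3 held the highest level of 8 of the 10 members and the second highest of the other two, Chil3 and F10. Within its group its FPKM was 1.94 (Ifitm6) to 98.2 (Ms4a4c) times the mean of the other 3 libraries. The 10 members summed to 152.1 FPKM in this library and to 10.2, 14.8 and 16.4 FPKM in the rest of Adr 3 d. By group mean, Adr 3 d ranked first of the 9 groups for 8 members with all libraries. Without replicate 3 it ranked first for 1 (Ifitm6), and Arrest 3 d ranked first for 8. In every member, each group's range overlapped that of the next group in the order of means, both with and without this library, so the order of neighbours does not exceed their spread.

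**Figure D1:**
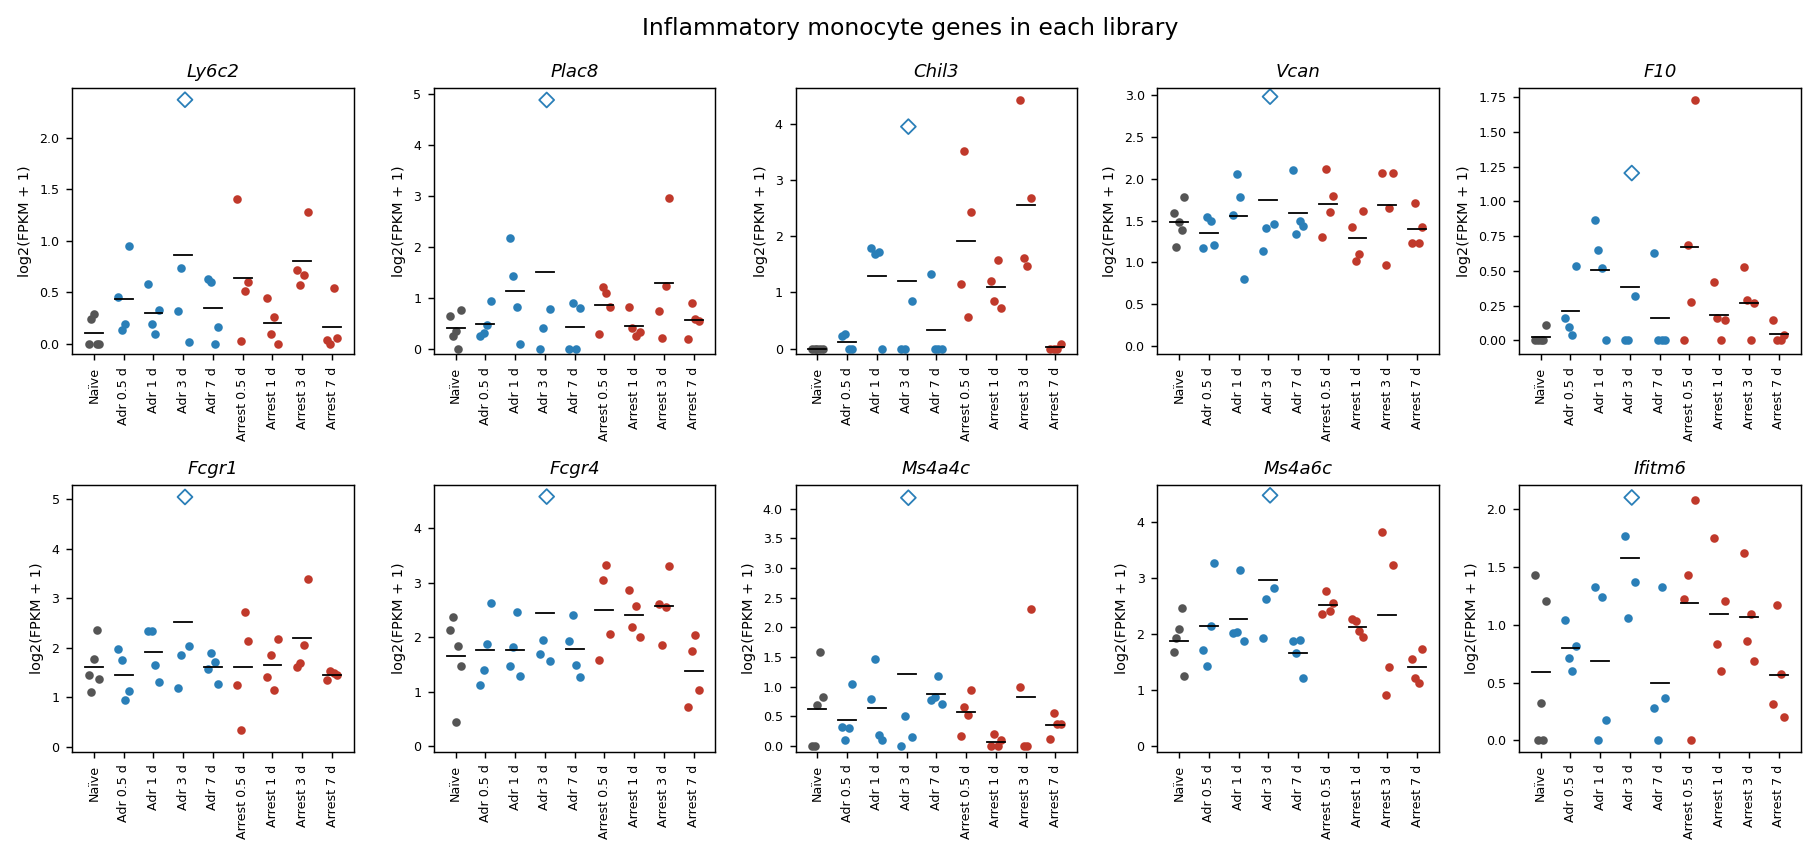
Level of each of the 10 inflammatory monocyte genes in the 37 libraries, as log2(FPKM + 1) on an axis set for each gene. Points are libraries, black lines are group means, and the open diamond is Adr 3 d replicate 3, which is the highest library in 8 panels; Chil3 is at 0 in all 5 Naïve libraries.

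The question of whether the members differ from Naïve at each time was tested with limma on log2(FPKM + 1) over all 16530 genes, calling genes at a Benjamini-Hochberg adjusted p of at most 0.05. None of the 10 members was called in any of the 14 comparisons. With p left unadjusted, the members at or under 0.05 numbered 1 in Adr 1 d (Chil3), 3 in Adr 3 d (Ifitm6, Ly6c2 and Ms4a6c), 2 in Arrest 0.5 d (Chil3 and F10) and 2 in Arrest 3 d (Chil3 and Ly6c2), and 0 in Adr 0.5 d, Adr 7 d, Arrest 1 d and Arrest 7 d. The share of all tested genes at or under that unadjusted p was 14% in Adr 0.5 d, 14.7% in Adr 1 d, 13.9% in Adr 3 d and 6.15% in Adr 7 d, and 18.2%, 21.7%, 13.7% and 5.15% in the Arrest groups in order of time. Without Adr 3 d replicate 3, which also enters the spread shared by all comparisons, the members numbered 2 in Adr 1 d (Chil3 and F10, with 17.6% of all genes), 1 in Adr 3 d (Ifitm6, with 7.28%), 4 in Arrest 0.5 d (Ly6c2, Chil3, F10 and Fcgr4, with 20.5%), 1 in Arrest 1 d (Chil3, with 24.4%) and 4 in Arrest 3 d (Ly6c2, Plac8, Chil3 and Fcgr4, with 16.2%), and 0 in the other groups. After adjustment, against Naïve, the share of all tested genes called was 0.188% in Adr 0.5 d, 0.69% in Adr 1 d, 0% in Adr 3 d, 0% in Adr 7 d, 3.21% in Arrest 0.5 d, 7.11% in Arrest 1 d, 0.139% in Arrest 3 d and 0% in Arrest 7 d. With shares this low, 0 of 10 is near the background in every comparison.

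The members' median log2 fold change against Naïve was 0.56 in Arrest 0.5 d, 0.13 in Arrest 1 d, 0.52 in Arrest 3 d and -0.06 in Arrest 7 d, where the medians of all tested genes were between 0.01 and 0.03. In the same order, 8, 8, 10 and 4 of the 10 members lay above 0. In Adr the members' medians were 0.11, 0.25, 0.85 and 0.12 in order of time, with 7, 10, 10 and 8 members above 0. Without Adr 3 d replicate 3 the Adr 3 d median was 0.08, with 7 members above 0, and Plac8, Ms4a4c and Vcan changed sign. Fold changes are on the scale of FPKM + 1 and therefore understate the change of members under 1 FPKM.

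**Figure D2:**
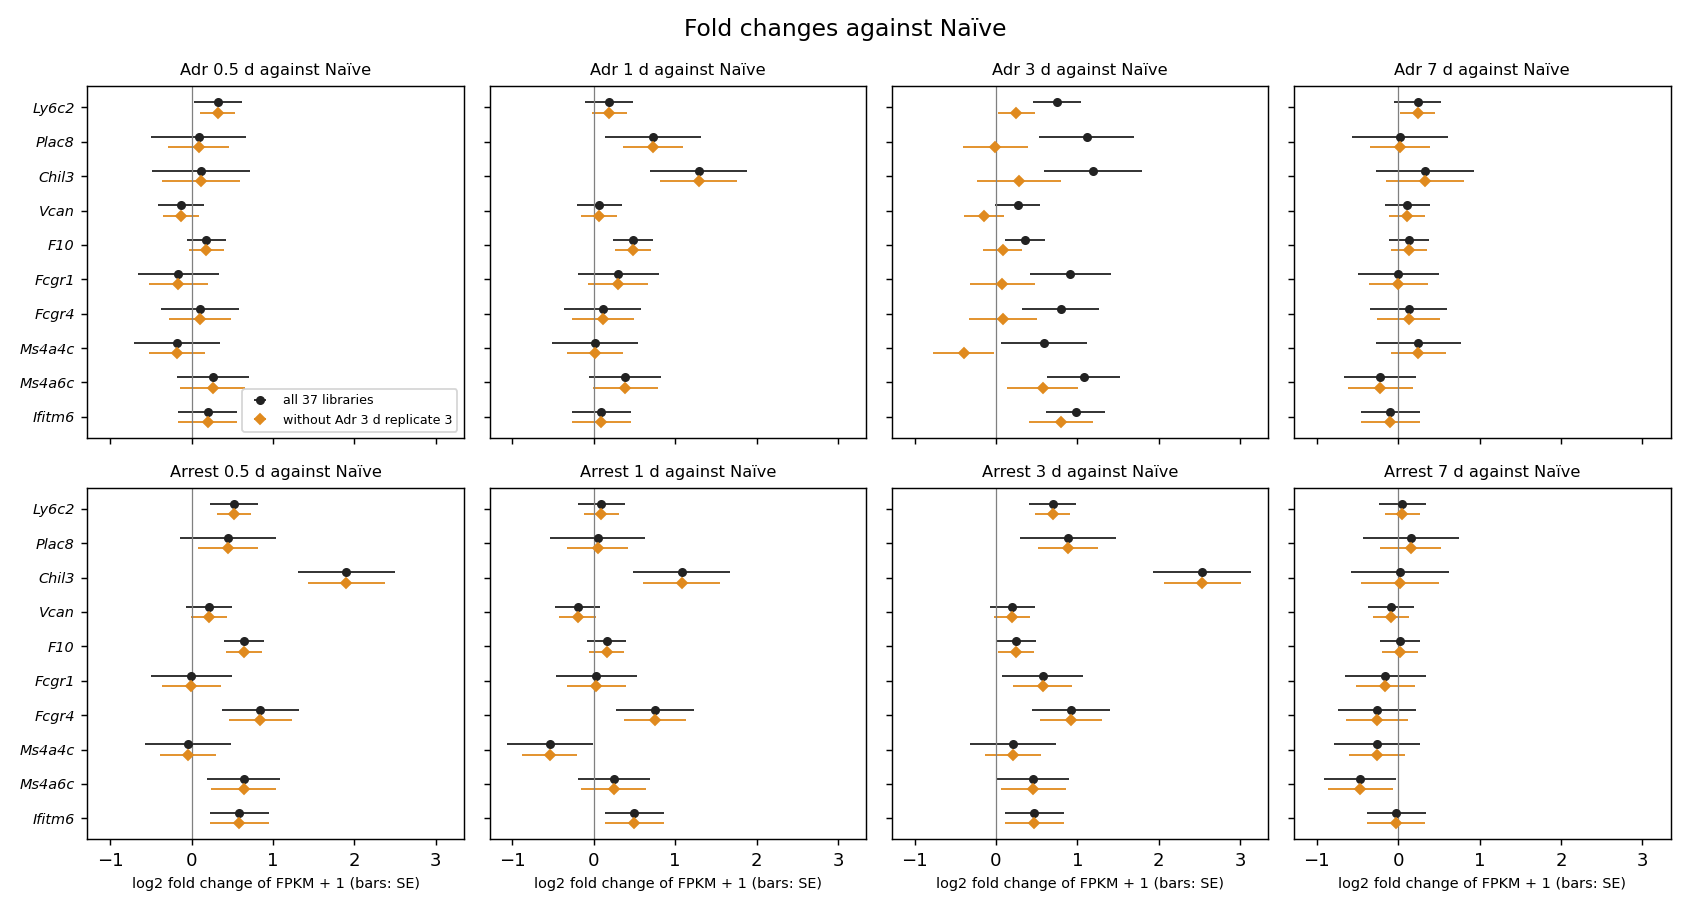
Log2 fold change of FPKM + 1 (horizontal axis) of each member against Naïve in the 8 treated groups, with bars of 1 standard error. Black circles use all 37 libraries and orange diamonds leave out Adr 3 d replicate 3, which moves the Adr 3 d values toward 0 or below it and shortens the bars of most members elsewhere; Chil3 at Arrest 3 d has the largest value, 2.53.

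Chil3 was the member that separated the groups most. It is listed on chromosome 3, and no Chil3 fragment was counted in any of the 5 Naïve libraries, a floor that allows up to 0.14 FPKM (3 fragments, counting error only). In Arrest 0.5 d the 4 libraries had 1.22, 10.5, 0.473 and 4.38 FPKM. Arrest 1 d had 1.31, 0.793, 1.99 and 0.65 FPKM. These 8 libraries all lay above every Naïve library. Arrest 3 d spread further, with 20.5, 2.05, 1.77 and 5.43 FPKM, again all above Naïve. At Arrest 7 d Chil3 was at 0 in 3 libraries and at 0.0628 FPKM, from 3 fragments, in the other, so that this group overlapped Naïve. Against the Naïve floor the group means were at least 29.6-fold higher in Arrest 0.5 d, at least 8.48-fold higher in Arrest 1 d and at least 53.2-fold higher in Arrest 3 d. Single libraries weigh on these bounds: Arrest 0.5 d without replicate 2 was at least 14.5-fold higher, and Arrest 3 d without replicate 1 at least 22.1-fold higher.

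In Adr hearts Chil3 was less even. Adr 0.5 d had 0.164, 0.198, 0 and 0 FPKM. Adr 1 d had 2.46, 2.22 and 2.28 FPKM in 3 libraries and 0 in the other. Adr 3 d had 0, 0, 14.5 and 0.806 FPKM, the 14.5 being replicate 3. Adr 7 d had 1.51 FPKM in replicate 1 and 0 in the other 3. Every Adr group thus had at least 1 library at 0 and overlapped Naïve.

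The fitted log2 fold change of Chil3 against Naïve was 1.90 ± 0.60 (SE) in Arrest 0.5 d, with a limma adjusted p of 0.074. In Arrest 3 d it was 2.53 ± 0.60, with an adjusted p of 0.063. Arrest 1 d had 1.08 and Adr 1 d 1.29, both with the same SE, and neither was called. Chil3 also lay higher in every Arrest 0.5 d library than in any Adr 0.5 d library. The difference was 1.78 ± 0.63 on the log2 scale (limma unadjusted p = 0.0082, adjusted p = 1). How many of all tested genes separated these groups in that way is not given here. Leaving out Adr 3 d replicate 3, which is in neither group, kept the fold changes against Naïve and lowered their SE to 0.48. Chil3 was then called in Arrest 0.5 d (adjusted p = 0.016, where 5.5% of genes were called) and in Arrest 3 d (adjusted p = 0.007, where 1.15% were called). Of 19 alternative fits, 3 called Chil3 in Arrest 0.5 d, 1 in Arrest 1 d and 2 in Arrest 3 d.

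The count of members whose treated libraries all lay above all Naïve libraries was 1 in Arrest 0.5 d (Chil3), 1 in Arrest 1 d (Chil3), 2 in Arrest 3 d (Chil3 and Ly6c2) and 0 in Arrest 7 d and in all 4 Adr groups. The share of tested genes with that property was 4.49%, 5.71%, 1.74% and 1.03% in the Arrest groups in order of time, and 3.36%, 2.51%, 1.29% and 0.938% in the Adr groups.

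Neutrophil markers moved with Chil3 in part. The summed FPKM of 14 neutrophil markers was 0 to 12.2 in Naïve, 6.21 to 33.1 in Arrest 0.5 d, 6.79 to 21.0 in Arrest 1 d and 3.83 to 32.8 in Arrest 3 d. In Adr it was 2.69 to 34.8 at 0.5 d, 1.80 to 9.67 at 1 d and 3.92 to 35.5 at 3 d. The 35.5 was in Adr 3 d replicate 3, where Chil3 was 14.5 FPKM. The libraries with the most Chil3 in Arrest 0.5 d (replicate 2) and in Arrest 3 d (replicate 1) also had the highest neutrophil sums of their groups, 33.1 and 32.8. Adr 0.5 d replicate 4 had a neutrophil sum of 34.8 and no Chil3 fragment. Of the 14 markers, Ly6g was at 0 in all 37 libraries, Mpo at 0 in 32 and Elane at 0 in 34. S100a8 and S100a9 were at 0 in 4 libraries each, and Mmp9 and Csf3r in 2 each. Of the 14, 6 could be tested. In Arrest 0.5 d all 6 lay above 0, with a median log2 fold change of 0.92 against Naïve. There 4 of the 6 were higher with an unadjusted limma p of at most 0.05. Of all tested genes 18.2% had such a p, counting higher and lower together. After adjustment 1 (Stfa2l1) was called, where 3.21% of all tested genes were called. Stfa2l1 was at 0 in 30 of the 37 libraries, among them all 5 Naïve, and reached no more than 0.847 FPKM, so that call rests on few fragments. The part of neutrophils in the Chil3 values was not tested. In bulk tissue, more cells of a type and more RNA per cell cannot be told apart. Of the 50-base windows of the Chil3 transcript, 29.4% also occur in another gene, and the close relative Chil4 was at 0 in all 37 libraries.

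Ly6c2, on chromosome 15, was scarce. Naïve libraries had 0, 0.184, 0.222, 0 and 0 FPKM. The Arrest 3 d libraries had 0.639, 0.489, 0.587 and 1.43 FPKM and did not overlap Naïve. Adr 3 d had 0.248, 0.67, 4.16 and 0.0145 FPKM and did overlap. The log2 fold change in Arrest 3 d was 0.69 ± 0.29, with a limma adjusted p of 0.27, or 0.089 without Adr 3 d replicate 3. In Adr 3 d it was 0.75 with that library and 0.25 without it. Arrest 0.5 d spread from 0.0216 to 1.64 FPKM and Arrest 7 d from 0 to 0.458 FPKM, both overlapping Naïve. Ly6c2 reached 1 FPKM in 3 of the 37 libraries and was at 0 in 6.

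The neighbouring gene Ly6c1 was on another scale altogether, from 62.2 to 340 FPKM across the libraries, and its mean over the 37 libraries was 323 times that of Ly6c2. Ly6c1 was 84.6 ± 9.46 FPKM (SD, n = 5) in Naïve, 237 ± 37.5 (n = 4) in Arrest 0.5 d and 239 ± 71.1 (n = 4) in Arrest 1 d. It rose in Arrest 0.5 d by 1.47 on the log2 scale (limma adjusted p = 0.0032) and in Arrest 1 d by 1.45 (limma adjusted p = 0.0018), and was 94.1 ± 4.52 FPKM (n = 4) in Arrest 7 d. The call held in 19 of 19 alternative fits in Arrest 0.5 d and in 18 of 19 in Arrest 1 d. In Arrest 1 d it was lost with sample number, the number listed for each sample, as a covariate (limma adjusted p = 0.086). Sample numbers ran from 116 to 127 in Naïve and from 70 to 95 in Arrest 1 d, so that fit cannot fully separate group from number. Between Arrest 1 d and Arrest 7 d, Ly6c1 differed by 1.29 (limma adjusted p = 0.016), a call lost in 5 of 18 alternative fits. In Adr 0.5 d the Ly6c1 levels were 123, 90.7, 223 and 239 FPKM, overlapping Naïve, with a log2 fold change of 0.89 (limma adjusted p = 0.13). In Adr 1 d they were 109, 123, 177 and 167 FPKM, all above Naïve, with a log2 fold change of 0.74 (limma adjusted p = 0.18). Ly6c1 is itself among the 7 endothelial markers, so their sum is bound to move with it. The summed FPKM was 252 to 305 in Naïve, 371 to 535 in Arrest 0.5 d and 314 to 559 in Arrest 1 d. In Adr 0.5 d it was 250 to 439 and in Adr 1 d 282 to 371. The 7 markers had a median log2 fold change against Naïve of 0.07 in Arrest 0.5 d and 0.08 in Arrest 1 d. In Arrest 0.5 d, 1 was called higher (Ly6c1) and 1 lower, where 3.21% of all tested genes were called. In Arrest 1 d, 1 was called higher (Ly6c1) and 2 lower, where 7.11% were called. The part of endothelium in the Ly6c1 values was not tested. The pair parted in Adr 3 d replicate 3: the Ly6c1 level there was 62.2 FPKM, the lowest of all 37 libraries, while Ly6c2 was highest there. Of the 50-base windows of the Ly6c2 transcript, 33.0% occur in another gene, mostly Ly6c1, so low Ly6c2 values beside abundant Ly6c1 are uncertain where fragments could be placed on either gene.

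**Figure D3:**
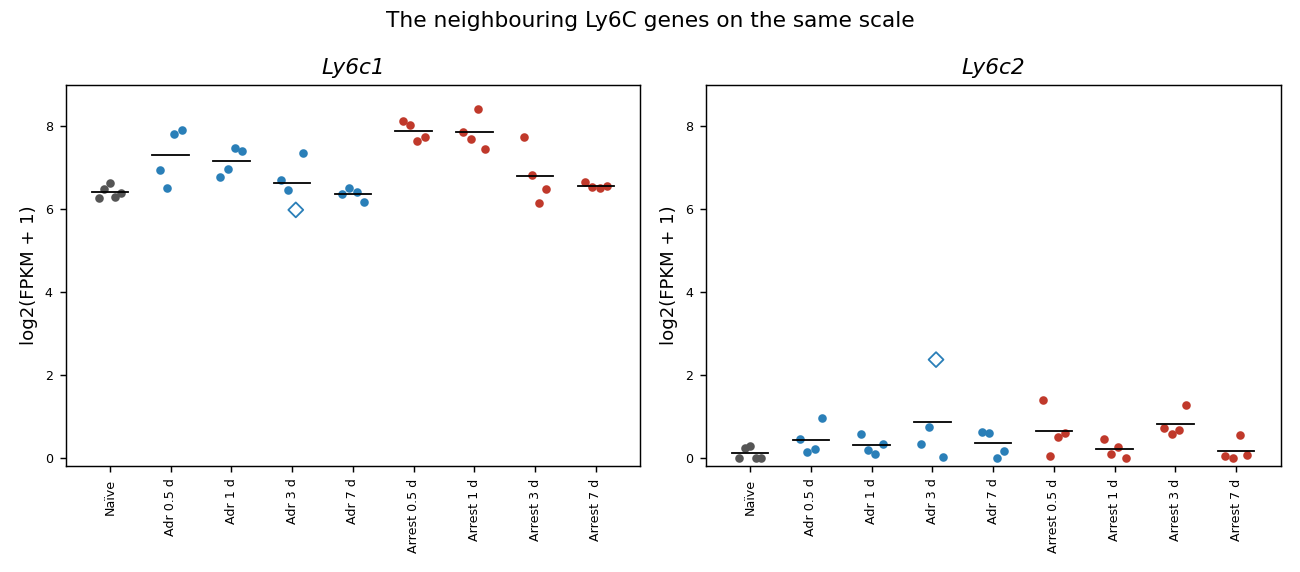
Ly6c1 (left) and Ly6c2 (right) in the 37 libraries, as log2(FPKM + 1) on the same axis. Points are libraries, lines are group means and the open diamond is Adr 3 d replicate 3; Ly6c1 lies between 62.2 and 340 FPKM and Ly6c2 between 0 and 4.16 FPKM.

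The Fc receptors were detected in every library. Fcgr1, the high-affinity IgG receptor, on chromosome 3, had 1.73, 1.17, 2.44, 4.15 and 1.58 FPKM in Naïve. Adr 3 d had 1.28, 2.61, 32.1 and 3.11 FPKM, and Arrest 3 d 2.05, 2.25, 3.15 and 9.51 FPKM. Both groups overlapped Naïve, and in each a single library carried most of the signal. The log2 fold change in Adr 3 d was 0.91 ± 0.50 with all libraries and 0.08 ± 0.40 without replicate 3, and in Arrest 3 d it was 0.57 ± 0.50. Arrest 7 d was the most even group, at 1.57 to 1.88 FPKM.

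Fcgr4, an IgG receptor better known from Ly6C-low monocytes and neutrophils, on chromosome 1, had 3.41, 4.16, 0.364, 2.58 and 1.78 FPKM in Naïve. Arrest 0.5 d had 1.99, 7.25, 9.02 and 3.17 FPKM, Arrest 1 d had 6.32, 3.55, 4.93 and 3 FPKM, and Arrest 3 d had 5.09, 2.62, 4.86 and 8.89 FPKM. The group means were 5.36, 4.45 and 5.36 FPKM against 2.46 ± 1.47 (SD, n = 5) in Naïve, and the ranges overlapped in each case. Log2 fold changes were 0.85, 0.75 and 0.92 with an SE of 0.48, and none passed the test. In Adr 3 d, replicate 3 had 23 FPKM and the other libraries 1.97 to 2.87 FPKM.

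The Ms4a genes, both on chromosome 19, differed in level. Ms4a6c had 2.18, 2.83, 3.23, 4.52 and 1.38 FPKM in Naïve. Arrest 0.5 d was even at 4.14, 5.8, 4.33 and 4.83 FPKM, of which 2 libraries lay within the Naïve range. Arrest 3 d was uneven at 13, 0.883, 1.66 and 8.34 FPKM. In Adr 3 d, with 2.8, 5.18, 21.1 and 6.05 FPKM, the log2 fold change was 1.08 ± 0.44 (limma adjusted p = 0.27), or 0.57 ± 0.43 without replicate 3. Of the windows of the Ms4a6c transcript, 56.9% occur in another gene, mostly the noncoding gene BE692007. The Ms4a6c level is therefore uncertain where fragments could be placed on either gene.

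Ms4a4c was scarcer. Naïve libraries had 0, 0, 0.608, 2.02 and 0.764 FPKM. Adr 3 d replicate 3 had 17.2 FPKM against 0, 0.412 and 0.114 in the other libraries, and the log2 fold change against Naïve turned from 0.59 to -0.40 without it. Arrest 3 d had 1, 0, 0 and 3.95 FPKM, and Arrest 1 d no more than 0.148 FPKM. All groups overlapped Naïve.

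Among the secreted products, Vcan, on chromosome 13, was the most even member, with 14462 bases of gene length and no library at 0. Naïve libraries had 2.01, 1.28, 1.78, 1.61 and 2.45 FPKM. Group means ran from 1.47 FPKM in Arrest 1 d to 2.37 in Arrest 3 d, apart from 2.89 in Adr 3 d, which was 1.54 without replicate 3. All 8 treated groups overlapped Naïve. Replicate 3 of Adr 3 d had 6.92 FPKM and more fibroblast marker signal than any other library. What the fibroblasts add to the Vcan values was not tested.

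F10, on chromosome 8, was at 0 in 15 of the 37 libraries. In Naïve it was at 0 in 4 libraries and at 0.0817 FPKM, from 3 fragments, in the other. Arrest 0.5 d had 0, 0.606, 0.212 and 2.33 FPKM, and Adr 1 d had 0.822, 0.568, 0.432 and 0 FPKM. Both groups had a library at 0 and so overlapped Naïve. The log2 fold change in Arrest 0.5 d was 0.65 ± 0.24 (limma unadjusted p = 0.012, adjusted p = 0.13), and in Adr 1 d 0.48 ± 0.24 (limma adjusted p = 0.35). F10 and Chil3 were both at 0 in Adr 1 d replicate 4.

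Plac8, on chromosome 5, had 0.562, 0.198, 0.287, 0 and 0.7 FPKM in Naïve. Adr 3 d had 0, 0.329, 28.7 and 0.726 FPKM, so that replicate 3 held 96.4% of the group's summed FPKM. The log2 fold change was 1.11 ± 0.59 with it and -0.01 ± 0.40 without it. Arrest 3 d had 0.677, 0.168, 1.37 and 6.78 FPKM, and Adr 1 d had 3.55, 1.7, 0.779 and 0.0731 FPKM. Each group overlapped Naïve.

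Ifitm6, on chromosome 7, depended least on that library. Naïve had 1.69, 0, 0.252, 0 and 1.31 FPKM, and Adr 3 d had 2.42, 1.09, 3.3 and 1.59 FPKM. The groups overlapped through a pair of Naïve libraries above the lowest Adr 3 d library. The log2 fold change was 0.98 ± 0.36 (limma unadjusted p = 0.011, adjusted p = 0.23), and 0.80 ± 0.39 without replicate 3 (limma adjusted p = 0.68). Its family relative Ifitm2 is an antiviral membrane protein found in many cell types. It was called in Arrest 0.5 d (log2 fold change 0.90, limma adjusted p = 0.0063), where 3.21% of all tested genes were called. In Arrest 1 d, where 7.11% were called, Ifitm2 was called too (0.81, limma adjusted p = 0.0064). These calls were lost in 1 and in 3 of 19 alternative fits. Ifitm2 was also called between Arrest 1 d and Arrest 7 d (0.80, limma adjusted p = 0.025), where 1.89% of genes were called. That call was lost in 9 of 18 alternative fits. Values of the relatives Ifitm1 and Ifitm3 are not given here.

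Arrest and Adr were compared at the same time after the procedure. None of the members was called at 0.5, 1, 3 or 7 d, where 0%, 0%, 0% and 0.00605% of all tested genes were called. At 0.5 d all 10 members lay above 0 (median log2 difference 0.37), and Chil3 alone reached an unadjusted p of at most 0.05. At 1, 3 and 7 d, 2 of the 10 lay above 0 at each time, with medians of -0.24, -0.17 and -0.19, and the unadjusted p was at most 0.05 for 1 member (Chil3) at 3 d and for 0 at the other times. From the earliest time to the latest, 3.86%, 6.59%, 5.37% and 2.52% of all tested genes had such an unadjusted p. Without Adr 3 d replicate 3 the 3 d median was 0.47 and 8 members lay above 0, of which Chil3 differed by 2.25 ± 0.54 on the log2 scale (limma adjusted p = 0.30). Chil3 and Plac8 then had an unadjusted p of 0.05 or less, as did 5.67% of all genes. Within a treatment, no member was called between Adr 1 d and Adr 7 d, where 0.0423% of genes were called, or between Arrest 1 d and Arrest 7 d, where 1.89% were called, and 0 members reached an unadjusted p of 0.05 in either, against 9.68% and 14.9% of all genes. Without Adr 3 d replicate 3, which is in neither pair, 2 members (Chil3 and Fcgr4) reached it between Arrest 1 d and Arrest 7 d, where 17.5% of genes did. Apart from Chil3 at 0.5 d, Ms4a4c lay lower in every Arrest 7 d library (highest 0.470 FPKM) than in any Adr 7 d library (lowest 0.642 FPKM). Ms4a6c and Chil3 lay higher in every Arrest 1 d library than in any Arrest 7 d library. No share of all tested genes is given for such separations, so they have no background here. The comparisons between treatments and between times share libraries with those against Naïve and are not separate evidence.

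Summed over the 10 members, the level was 11.1 ± 2.28 FPKM (SD, n = 5) in Naïve. It was 23.6 ± 7.48, 14.7 ± 2.62, 31.0 ± 20.3 and 8.40 ± 1.86 FPKM (SD, n = 4 each) in the Arrest groups from the earliest to the latest. In Adr it was 12.4, 17.2, 48.4 and 11.6 FPKM at the same times, and 13.8 ± 3.23 at 3 d without replicate 3. The Arrest 3 d libraries fell into a pair near 48 FPKM (48.7 and 48.3 in replicates 1 and 4) and a pair at 10.4 and 16.7 FPKM. Of these, 10.4 lay within the Naïve range of 9.19 to 14.9 FPKM and 16.7 lay above it. Replicates 1 and 4 also had lower cardiomyocyte sums (8129 and 9888 FPKM, against 14762 and 14459 in replicates 2 and 3) and higher resident macrophage sums (580 and 603 FPKM, against 334 and 436), and the part of these in the member sums was not tested. The sums are dominated by the more abundant members and are given without a test.

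**Figure D4:**
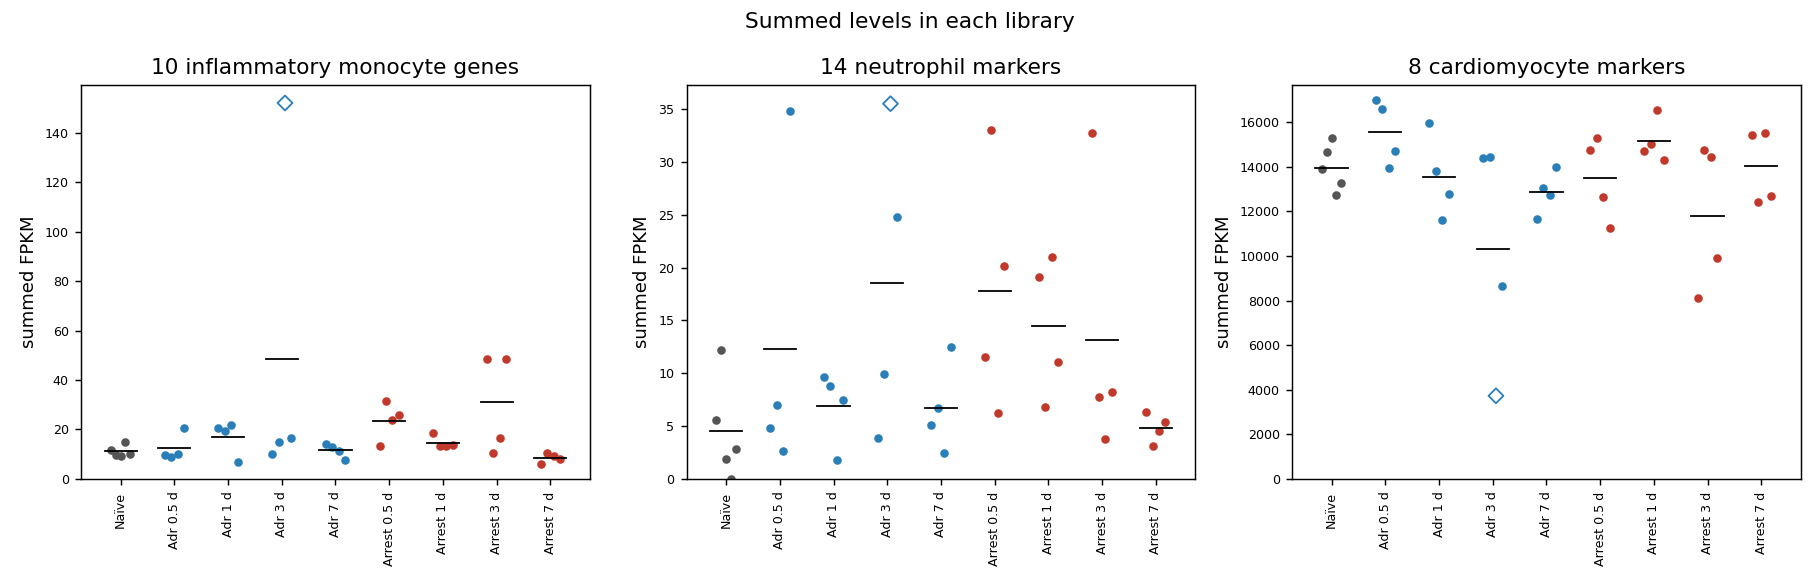
Summed FPKM in each library of the 10 members (left), 14 neutrophil markers (middle) and 8 cardiomyocyte markers (right). Points are libraries, lines are group means and the open diamond is Adr 3 d replicate 3, which holds the highest member sum (152.1 FPKM) and the lowest cardiomyocyte sum (3727 FPKM).

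Other genes of the monocyte programme were taken from a list of 40, of which 33 could be tested. In Arrest 0.5 d, 2 of the 33 were called, both higher: Ccl6, a chemokine of myeloid cells (log2 fold change 1.66, limma adjusted p = 0.034), and Clec4d, a C-type lectin receptor shared with neutrophils (2.40, limma adjusted p = 0.046). Of 19 alternative fits, 11 lost the Ccl6 call (adjusted p 0.014 to 0.16 over all 19) and 14 lost that of Clec4d (0.015 to 0.18), among them fits that left out single Arrest 0.5 d or Naïve libraries. In Arrest 1 d, Klf4, a transcription factor needed for monocyte development and also expressed in endothelium, was called (0.91, limma adjusted p = 0.043), and 12 of 19 alternative fits lost that call (adjusted p 0.0078 to 0.66). Over all tested genes, limma called 3.21% in Arrest 0.5 d and 7.11% in Arrest 1 d. In the other 6 comparisons with Naïve, limma called 0 of the 33. Before adjustment, list genes that were higher with a limma p no greater than 0.05 numbered 10, 5, 5 and 0 in Arrest by time. In Adr they numbered 0, 3, 7 and 0. Among all tested genes, 18.2%, 21.7%, 13.7% and 5.15% had such a p in Arrest, counting higher and lower together. In Adr these shares were 14%, 14.7%, 13.9% and 6.15%. Without Adr 3 d replicate 3 the 7 in Adr 3 d became 1. The list's median log2 fold change was 0.45, 0.11, 0.32 and -0.05 in the Arrest groups from the earliest to the latest, close to the members' own medians at 1 and 7 d and lower at 0.5 and 3 d.

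The genes that bring Ly6C-high monocytes into tissue did not pass the test. Ccl2, the main ligand of CCR2, averaged 2.33 ± 1.18 FPKM (SD, n = 5) in Naïve, 8.25 ± 4.92 (n = 4) in Arrest 0.5 d and 12.0 ± 8.04 (n = 4) in Adr 1 d, with log2 fold changes of 1.38 and 1.73 (limma adjusted p = 0.24 and 0.19). Ccr2 itself averaged 0.80 ± 0.33 FPKM (n = 5) in Naïve and 0.79 ± 0.43 (n = 4) in Arrest 0.5 d. Ccr2 was 11.3 FPKM in Adr 3 d replicate 3 and 5.13 in the highest Arrest 3 d library, the same libraries in which Fcgr1, Plac8 and Ms4a4c were high. Of genes of Ly6C-low monocytes, Cx3cr1 had a log2 fold change of -1.25 in Arrest 1 d (limma adjusted p = 0.06), and Nr4a1 of -0.04 there. Lyz2, the lysozyme of all myeloid cells, averaged 318 ± 82.2 FPKM (n = 5) in Naïve and 604 ± 247 (n = 4) in Arrest 3 d, with a log2 fold change of 0.87 (limma adjusted p = 0.23).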

How the data were processed

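RNA of 37 mouse left ventricles was sequenced as paired ends. Per the study's methods the reads were aligned with HISAT2 and the genome build is not given in the sources used here. The authors deposited FPKM per gene. Every value checked was a whole multiple of 1 fragment, within 0.01, so the fragments behind low values are given. The check left out the most abundant genes and covered, for example, 18749 of the 21377 genes above 0 in Adr 0.5 d replicate 1. Precision follows depth, 13.2 M to 30.2 M fragments, and floors of 3 fragments cover counting error only. FPKM were divided by median-ratio factors, 1.01 in every library, since the deposited values were already scaled in that way and not by depth alone. Genes with at least 0.5 FPKM in 4 libraries (16530) were fitted with limma 3.58.1 in R 4.3.3 on log2(FPKM + 1) with a variance trend and 1 mean per group, and adjusted within each of 14 comparisons by Benjamini-Hochberg, after a test on simulated data. Alternatives changed scaling, pseudocount, filter, length correction, sample number (a covariate partly tied to group), replicate block and libraries. The members, lists and named genes (the members, the list genes past the threshold, set relatives and the 5 genes most alike) were chosen with earlier results of these data known. Chil4 and BE692007 were added after their values were seen. Promoters came from RefSeq GRCm38.p6, where all 10 members matched, and shared windows from GENCODE transcripts. The windows are shorter than the study's reads, so the share of fragments that could be placed on several genes was not measured.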

Additional observations from a re-analysis of the deposited data

Results flagged for a closer look

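Each member was screened in each group for a single library far from the rest, by Dixon's ratio of the gap to the group's range. The cutoff flags about 1 in 20 groups of normally distributed values, which FPKM with many zeros are not, so no chance rate is given. Where all the other libraries are at 0, any value above 0 is flagged. That was so for Chil3 in Adr 7 d and Arrest 7 d, and for F10 in Adr 7 d and Naïve. Of 90 screened groups 17 were flagged, and 7 of the 17 were Adr 3 d replicate 3. In that library the flagged levels were 4.16 FPKM for Ly6c2, 28.7 for Plac8, 14.5 for Chil3, 6.92 for Vcan, 32.1 for Fcgr1, 23.0 for Fcgr4 and 17.2 for Ms4a4c, each above the other 3 libraries of its group. The part of its low cardiomyocyte signal in these values was not tested.

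Arrest 3 d replicate 4 was high for Ly6c2 (1.43 FPKM, the others 0.489 to 0.639) and for Fcgr1 (9.51 FPKM, the others 2.05 to 3.15). Arrest 7 d replicate 3 was high for Ly6c2, at 0.458 FPKM, and Arrest 7 d replicate 4 for Chil3, at 0.0628 FPKM, which is 3 fragments. Adr 7 d replicate 1 was high for Chil3 (1.51 FPKM, the others 0), Vcan (3.31 FPKM, the others 1.54 to 1.82) and F10 (0.545 FPKM, the others 0). Adr 1 d replicate 4 was low for Chil3, at 0 against 2.22 to 2.46 FPKM, and Adr 1 d replicate 3 was high for Ms4a6c, at 7.84 against 2.65 to 3.12 FPKM. Naïve replicate 5 was high for F10, at 0.0817 FPKM, which is 3 fragments.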

How the results depend on the processing

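The count of members called was 0 in each of the 14 comparisons and stayed 0 in 252 of 258 alternative fits. It was 1, Chil3 each time, with a pseudocount of 0.1 in Arrest 0.5 d (log2 fold change 4.60, limma adjusted p = 0.020), Arrest 1 d (3.55, adjusted p = 0.045) and Arrest 3 d (5.51, adjusted p = 0.023), without Adr 3 d replicate 3 in Arrest 0.5 d and Arrest 3 d, and without Arrest 0.5 d replicate 3 in Arrest 0.5 d (2.35, adjusted p = 0.038). Leaving out single libraries gave 0 to 1 in Arrest 0.5 d and Arrest 3 d and 0 elsewhere. The adjusted p of Chil3 ranged from 0.016 to 0.31 in Arrest 0.5 d and from 0.0070 to 0.26 in Arrest 3 d. Signs turned, without passing the test, for Chil3 in Adr 0.5 d (quantile scaling -0.017, length trend removed -0.067, sample number -0.069) and in Arrest 7 d (-0.035, -0.044 and -0.33), for Ms4a4c (-0.40), Plac8 (-0.0070) and Vcan (-0.15) in Adr 3 d without replicate 3 (single libraries left out, -0.40 to 0.99, -0.0070 to 1.62 and -0.15 to 0.47), and for Vcan in Adr 3 d with sample number (-0.13). The causes were not tested, beyond the lower spread that follows from leaving out Adr 3 d replicate 3. With the replicate block the count of members called was 0 in all 14 comparisons; replicate numbers did not pair the libraries (mean correlation of same-numbered deviations -0.01 over 144 pairs, and 1 of 37 libraries correlated best with its own number). Members under 1 FPKM rest on few fragments, so a difference in them may not be detectable at this depth.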

Other observations

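The genes most like the members were sought among 11541 genes with a mean of at least 1 FPKM, by Pearson's r with the mean of the members' z-scores in each library. Over 37 libraries these were Lgmn, which encodes the lysosomal protease legumain (r = 0.94), Sdcbp (0.92), Prelid1 (0.92), Adam8, a metalloprotease of leukocytes (0.91), and Ctss, which encodes cathepsin S (0.91). Over the 36 libraries without Adr 3 d replicate 3 they were Lgmn (r = 0.86), Prelid1 (0.82), Plek, which encodes pleckstrin of platelets and leukocytes (0.81), Ctss (0.80) and Laptm5, a lysosomal membrane protein of blood cells (0.80). Lgmn, Prelid1 and Ctss were in both sets. These values describe libraries that share tissue and scaling, and carry no test.

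The members varied together less without that library. Pearson's r between pairs of members ran from 0.15 to 0.80 with a median of 0.54 over 37 libraries, and from -0.16 to 0.62 with a median of 0.32 over 36 libraries.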
